A study of Mus musculus with 92 samples.

Results

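STAG2 and STAG1 peaks of wild-type mouse germline stem cells (GSC) were compared by the places at which each protein was called. The members are 20020 sites, found from 3 STAG2 and 2 STAG1 lists of peaks, out of 30 peak lists with 1189945 peaks used here from a series of 92 samples. Within the lists of one protein, overlapping peaks were merged, and an interval overlapped by peaks of at least 2 lists of that protein was taken as its site. This gave 19827 STAG2 sites and 8615 STAG1 sites. Sites that overlapped by at least 1 bp were counted once, as 8411 shared sites, and the others were 11415 STAG2-only and 194 STAG1-only sites.

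The study asked how a cohesin complex with STAG3 works in the mitotic male germline, by chromatin immunoprecipitation and sequencing (ChIP-seq) of cohesin subunits, CTCF and histone marks. The wild-type GSC came from the AAG line, which carries Acrosin-EGFP and beta-Actin-EGFP, and were sorted for the AAG signal. CTCF lists came from GSC of 4 mutant genotypes: Stag3 KO, Stag1-only (Stag2Stag3dKO), Stag2-only (Stag1Stag3dKO) and Stag3-only (Stag1Stag2dKO). The authors pooled the replicates before calling CTCF peaks, so CTCF has no replicate error, and no wild-type CTCF list was analysed here. The other cell types used below, wild-type ESC (embryonic stem cells), EpiLC (epiblast-like cells) and the primordial germ cell-like cells d2PGCLC and d4c7PGCLC, came from another line (BVSC, carrying Blimp1-mVenus and Stella-ECFP), so cell type and line cannot be told apart. A peak list holds no RNA level, so the labelled cell type could not be checked against its marker genes.

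Cohesin is a ring of the subunits SMC1A, SMC3 and RAD21 that holds sister chromatids together and extrudes DNA loops, and each complex carries one STAG protein. In cells outside meiosis this is mostly STAG1 or STAG2, and STAG3 is known best from meiosis. CTCF binds a long DNA motif and holds extruding cohesin in place, so cohesin peaks are usually found on CTCF sites. Genes for transfer RNAs (tRNA) are short genes transcribed by RNA polymerase III from promoter elements inside the gene, the A box and the B box. Cohesin and its loaders have been mapped to such genes in other organisms.

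Promoter sequences of 6 genes are shown because they stand for the patterns described below. They are the 250 bases before the listed gene start, in the direction of the gene, from the RefSeq table of build GRCm38.p6. In the first 4, capitals mark the bases of an annotated tRNA gene, on either strand. Polg (chr7:79466274-79466523, minus strand) encodes the catalytic subunit of the mitochondrial DNA polymerase, and its window holds the whole arginine tRNA gene n-TRtcg5. Ndufs7 (chr10:80249199-80249448, plus strand), a subunit of respiratory complex I, begins next to the asparagine tRNA gene n-TNgtt7. Both windows lay under a STAG2 peak in all 3 lists, with no STAG1 and no CTCF peak. The window of BC107364 (chr3:96452307-96452556, minus strand) holds most of the histidine tRNA gene n-THgtg7 and had no STAG1, STAG2 or CTCF peak. Polr3e (chr7:120917528-120917777, plus strand), which encodes a subunit of RNA polymerase III, begins next to the leucine tRNA gene n-TLaag4 and had STAG1, STAG2 and CTCF peaks. In the last 2, capitals mark a match to the core of the CTCF motif, read here as CC, any 3 letters, AG, any 2 letters and GGC. Pds5b (chr5:150673577-150673826, plus strand), a regulator that binds the cohesin ring, and Mrpl17 (chr7:105811088-105811337, minus strand), a mitochondrial ribosomal protein, lay under shared sites called in all 5 lists.
Polg: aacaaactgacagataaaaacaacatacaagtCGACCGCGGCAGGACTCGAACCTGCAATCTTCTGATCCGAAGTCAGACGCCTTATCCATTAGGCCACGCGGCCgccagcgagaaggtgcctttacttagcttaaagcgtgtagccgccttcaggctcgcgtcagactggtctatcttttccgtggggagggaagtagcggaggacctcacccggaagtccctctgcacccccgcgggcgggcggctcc
Ndufs7: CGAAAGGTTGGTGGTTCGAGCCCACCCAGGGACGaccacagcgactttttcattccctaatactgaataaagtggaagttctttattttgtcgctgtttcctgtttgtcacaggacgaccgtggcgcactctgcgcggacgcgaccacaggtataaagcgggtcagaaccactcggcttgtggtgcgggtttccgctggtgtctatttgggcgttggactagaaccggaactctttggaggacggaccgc
BC107364: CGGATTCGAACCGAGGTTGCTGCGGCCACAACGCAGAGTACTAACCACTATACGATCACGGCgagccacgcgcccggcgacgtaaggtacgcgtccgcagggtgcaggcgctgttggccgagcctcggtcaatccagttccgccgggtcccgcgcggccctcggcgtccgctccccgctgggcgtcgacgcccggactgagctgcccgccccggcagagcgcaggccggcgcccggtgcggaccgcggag
Polr3e: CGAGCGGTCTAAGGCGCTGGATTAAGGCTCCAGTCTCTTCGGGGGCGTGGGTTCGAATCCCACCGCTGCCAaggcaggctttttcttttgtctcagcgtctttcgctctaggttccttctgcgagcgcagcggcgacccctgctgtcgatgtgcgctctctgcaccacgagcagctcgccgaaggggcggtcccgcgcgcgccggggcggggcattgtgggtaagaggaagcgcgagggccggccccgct
Pds5b: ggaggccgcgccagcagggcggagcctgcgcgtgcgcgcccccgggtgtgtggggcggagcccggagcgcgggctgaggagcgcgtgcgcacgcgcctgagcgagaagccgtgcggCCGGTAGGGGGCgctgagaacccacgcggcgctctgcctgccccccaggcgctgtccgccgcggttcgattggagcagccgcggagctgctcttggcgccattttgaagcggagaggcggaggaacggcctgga
Mrpl17: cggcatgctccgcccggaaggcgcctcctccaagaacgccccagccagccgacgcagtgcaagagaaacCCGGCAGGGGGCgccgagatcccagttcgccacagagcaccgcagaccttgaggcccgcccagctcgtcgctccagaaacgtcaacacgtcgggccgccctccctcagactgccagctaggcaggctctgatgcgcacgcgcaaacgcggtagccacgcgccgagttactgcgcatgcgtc

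The STAG1 lists held 9641 and 10778 peaks, and the STAG2 lists held 25021, 13698 and 25979 peaks in replicates 1, 2 and 3. STAG2 replicate 2 stood apart, with little more than the length of a STAG1 list. The list differences and the main counts of sites and genes are therefore also given with single lists left out. Shares of sites in other cell types and STAG3 lists, promoter letters and gene lists are given for the full set of lists only. The authors' fold enrichment, a linear ratio of reads at the peak over the local background, had a median of 8.19 and 8.05 in the STAG1 lists and of 7.86, 9.49 and 7.38 in the STAG2 lists. The highest peak reached 53.3 and 48.0 in the STAG1 lists and 295, 259 and 238 in the STAG2 lists. These are the authors' values per peak and are used here to describe and rank peaks within a list. The read depth behind each list is unknown, and absence of a peak means that none was called, not that the protein was absent. The labels do not say whether replicates were separate cultures. The spread between lists may then be technical only, and the p-values compare these lists alone and do not measure that spread.

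The shared sites were almost all CTCF sites, and the STAG2-only sites fell into 2 large groups. Of 8411 shared sites, 8402 (99.9%) overlapped a CTCF peak in all 4 mutant genotypes and 2 had no CTCF peak. Of 11415 STAG2-only sites, 6063 had a CTCF peak in all 4 genotypes, 280 in 1 to 3 of them, and 5072 (44.4%) in none. Few sites thus had a CTCF peak in some genotypes and not in others. Of 194 STAG1-only sites, 163 had a CTCF peak in all 4 genotypes and 27 in none. Below, "at CTCF" means a CTCF peak in all 4 genotypes and "without CTCF" means a peak in none. Shared sites were wider, with a median of 492 bp against 348 bp for STAG2-only sites at CTCF, 429 bp for those without CTCF and 278 bp for STAG1-only sites. A shared site spans the merged peaks of both proteins, so part of this order can come from the rule. Single STAG2 peaks in replicates 1, 2 and 3 had median widths of 430, 368 and 436 bp at shared sites. At STAG2-only sites they were 294, 255 and 297 bp at CTCF and 321, 272 and 349 bp without CTCF.

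**Figure D1:**
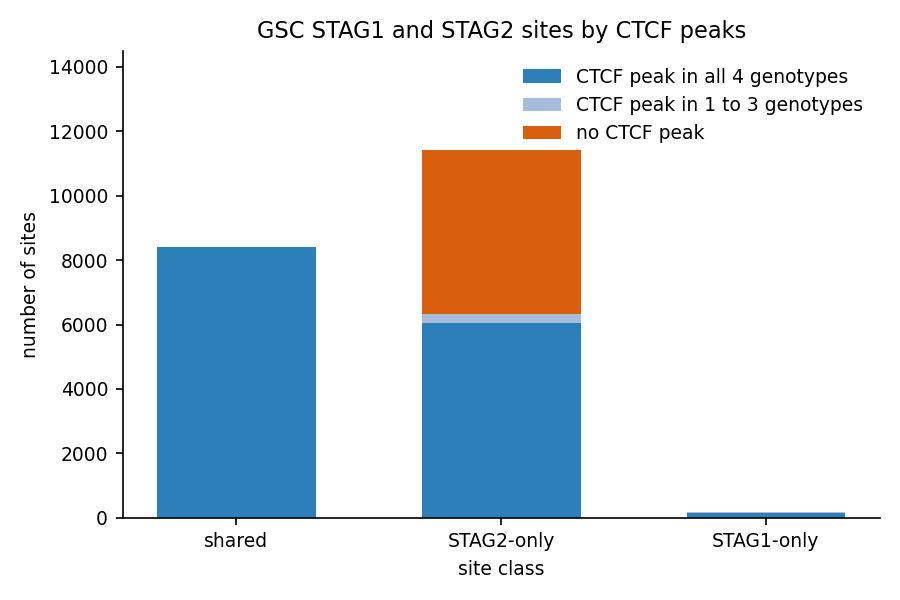
Number of sites (y axis) in each site class (x axis), split by the number of the 4 GSC genotypes with a CTCF peak. The shared bar is almost wholly CTCF sites, and 5072 of the 11415 STAG2-only sites have no CTCF peak.

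The number of lists mattered for the STAG2 sites. Merged STAG2 intervals found in 1 list, which are not sites by the rule, numbered 12543 and were at shared CTCF sites in 30.5%. Those found in 2 lists numbered 7652, with 48.1% at shared CTCF sites, and those in all 3 lists numbered 12175, with 88.8%. Of the 5072 STAG2-only sites without CTCF, 3459 were called in replicates 1 and 3 and not in the short replicate 2, and 1277 were called in all 3 lists. Leaving out replicate 1 left 1454 STAG2-only sites without CTCF, leaving out replicate 3 left 1432, and leaving out replicate 2 left 4744. The number of STAG2-only sites without CTCF therefore rests on replicates 1 and 3. Of the STAG2-only sites, 2339 had a peak in 1 of the STAG1 lists, 2243 of them at CTCF.

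The log2 ratio of list lengths, STAG2 over STAG1, was 1.02. Peak by peak, the STAG1 lists were at shared CTCF sites in 98.9% and 97.0%, and the STAG2 lists in 64.6%, 85.2% and 60.8%. The lists did not overlap, with a mean of 70.2 ± 13.1% (SD, n = 3) for STAG2 and 98.0 ± 1.29% (SD, n = 2) for STAG1 and an exact 2-sided permutation p of 0.2. At gene starts, within 2500 bp of a listed start of a protein-coding gene or, where none was listed, of either end of the gene, lay 14.1% and 14.6% of STAG1 peaks and 28%, 18.9% and 29.8% of STAG2 peaks. The difference was 11.2 percentage points, with no overlap between the lists and an exact 2-sided permutation p of 0.2. At sites of STAG3, the third STAG protein, called in at least 2 of 3 GSC lists, lay 84.6% and 80.8% of STAG1 peaks and 62.4%, 71.6% and 64.6% of STAG2 peaks. STAG2 was lower by 16.5 percentage points, again with an exact 2-sided permutation p of 0.2. With 3 lists against 2 there are 10 arrangements, and 0.2 is the smallest p they can give, so none of these 3 differences or that of list length could pass 0.05. When each list was reduced to its 9641 highest peaks by fold enrichment, the length of the shortest list, the differences shrank to -5.26 points at CTCF sites, 1.15 at gene starts and -4.87 at STAG3 sites, each in the same direction and with the same p.

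The same setting moved the site classes. With lists of equal length there were 7041 shared, 2352 STAG2-only and 1088 STAG1-only sites, and 475 STAG2-only sites without CTCF in place of 5072. The share of STAG2-only sites at shared CTCF sites rose from 53.4% (95% exact binomial interval 52.4 to 54.3%, counting error only) to 78.6%. The number of STAG2-only sites therefore depended on list length, while 99.9% of shared sites were at CTCF in both settings. The number of tRNA genes with a STAG2-only site was 248 and became 243. The cut keeps the highest peaks, and peaks on tRNA genes were mostly among these, so this small change was largely fixed by the rule.

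Shared sites sat on the strongest CTCF peaks. In each CTCF list the peaks were ordered by the authors' fold enrichment and divided into deciles. In the highest decile, 70.1 to 75.3% of CTCF peaks (range over the 4 lists) overlapped a shared site, 14.5 to 16.2% a STAG2-only site, 0.934 to 1.19% a STAG1-only site and 9.11 to 12.5% no site. In decile 8, the STAG2-only share was 25.7 to 29.6% and the shared share 23.4 to 30.4%. In the lowest decile, 0.285 to 0.848% overlapped a shared site, 4.01 to 5.16% a STAG2-only site and 94.3 to 95.6% no site. The median within-list percentile of CTCF fold enrichment was 83.9 to 86.3 at shared sites and 65.8 to 70.0 at STAG2-only sites. The order of these groups was the same in the lists of Stag3 KO, Stag1-only, Stag2-only and Stag3-only GSC. Of 36623 CTCF sites called in all 4 genotypes, 8414 (23.0%) held a shared site, 6078 (16.6%) a STAG2-only site, and 21969 (60%) no site of either protein.

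**Figure D2:**
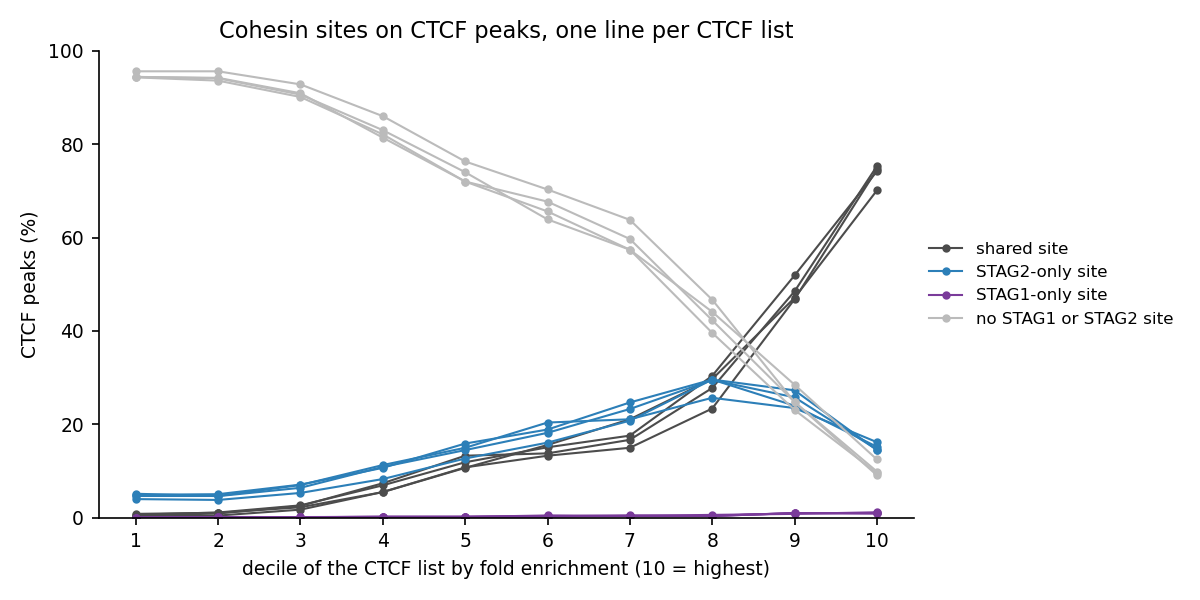
Percent of CTCF peaks (y axis) that overlap each class of site, by decile of the CTCF list ordered by fold enrichment (x axis, 10 is highest), with 1 line for each of the 4 CTCF lists. The shared share climbs from 0.285 to 0.848% in the lowest decile to 70.1 to 75.3% in the highest.

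The peaks also differed in rank within their own lists. At shared sites the median percentile of fold enrichment in STAG2 replicates 1, 2 and 3 was 81.4, 67.8 and 82.5. At STAG2-only sites at CTCF it was 49.9, 30.5 and 51.4, and at those without CTCF 30.9, 18.7 and 36.0. In every STAG2 list the groups thus had the same order. STAG1 peaks at shared sites had median percentiles of 55.9 and 60.5. At sites at CTCF, the summits of STAG1 and STAG2 peaks lay at about the same distance from the nearest CTCF summit, with medians of 58.0 to 61.0 bp for STAG1 and 59.0 to 64.0 bp for STAG2 over the lists and the shared and STAG2-only groups.

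The lists of the other cell types separated the groups of STAG2-only sites. STAG2-only sites at CTCF carried a STAG1 peak in 47.1 to 93.3% over the 8 STAG1 lists of ESC, EpiLC, d2PGCLC and d4c7PGCLC. STAG2-only sites without CTCF carried one in 0.355 to 6.11%, and shared sites in 74.4 to 99.4%. Of the 6063 sites at CTCF, 230 (3.79%) had a STAG1 peak in none of the 8 lists, against 4416 (87.1%) of the 5072 without CTCF. In the 10 STAG2 lists of the same cell types, sites at CTCF were called in 79.8 to 97.6% and sites without CTCF in 28.1 to 50.8%. Ranges of the groups at CTCF and without CTCF did not overlap for either protein. These lists came from other libraries of other lengths, from 14720 to 84904 peaks, and a longer list calls more sites, so no test of the difference was made.

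**Figure D3:**
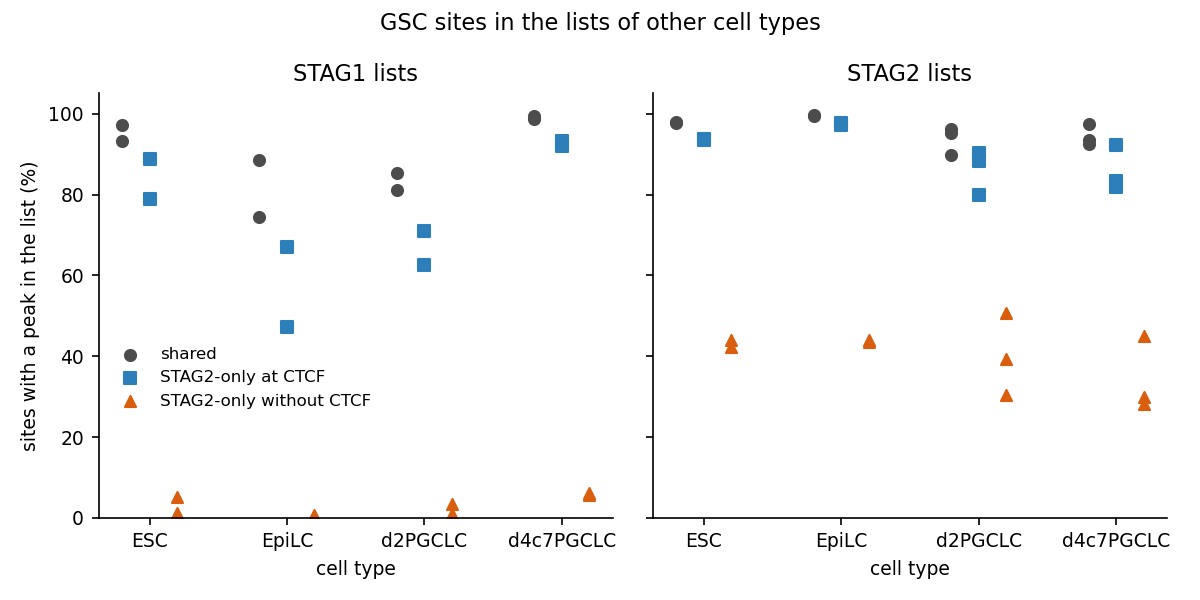
Percent of GSC sites with a peak (y axis) in each STAG1 list (left) and STAG2 list (right) of 4 other cell types (x axis), with 1 point for each list. Sites without CTCF lie at 0.355 to 6.11% in STAG1 lists and at 28.1 to 50.8% in STAG2 lists.

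STAG3 peaks of wild-type GSC were found at all classes, but rarely at STAG1-only sites without CTCF. The STAG3 lists held 12832, 38631 and 39681 peaks. Of shared sites, 61.8%, 91.2% and 91.9% had a STAG3 peak in these lists. Of STAG2-only sites without CTCF, 23.2%, 72.9% and 73.9% had one, and of those at CTCF 17.7%, 52.6% and 55.1%. In each STAG3 list the share was thus higher at STAG2-only sites without CTCF than at those with it. Of STAG1-only sites at CTCF, 35.6%, 78.5% and 75.5% had a STAG3 peak, and of the 27 without CTCF 0%, 3.70% and 7.41%. Peak names place the STAG3 lists in another calling run, so antibody and run cannot be told apart.

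Among STAG2-only sites, the strongest STAG2 peaks of GSC lay on tRNA genes, where STAG1 was called at 2 of 408 genes in 1 list. This was seen in the data and not looked for at the start. Of 408 annotated tRNA genes on the chromosomes used, 256, 258 and 255 overlapped a peak in STAG2 replicates 1, 2 and 3, and 0 and 2 in the STAG1 lists. The STAG2 lists were close to each other although replicate 2 was much shorter. In all 3 STAG2 lists and neither STAG1 list were 251 tRNA genes (61.5%). By the same rule 5.43% of all RefSeq genes of at most 300 bp were called, and 0.702% of those other than tRNA genes. Another 149 tRNA genes had no peak in any STAG2 list. The peaks on tRNA genes had a median fold enrichment of 116, 103 and 85.5, at the 99.5, 99.2 and 99.3 percentile of their lists.

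Almost every peak above a fold enrichment of 80 at a STAG2-only site without CTCF was on a tRNA gene. In replicates 1, 2 and 3 these were 124 of 128, 115 of 117 and 90 of 93 such peaks. At a fold of up to 10 they were 4 of 4489, 5 of 1361 and 8 of 4456. The 195 STAG2-only sites on tRNA genes, of which 174 had no CTCF peak, are thus a small and strong part of the class, and most sites without CTCF were weak. In the top 1% of each STAG2 list, 147 of 251, 125 of 137 and 118 of 261 peaks overlapped a tRNA gene, against 0.815%, 1.49% and 0.774% of the whole lists. In the same top 1%, 99, 12 and 143 peaks were at shared sites, so that in replicate 3 more of these peaks were at shared sites than on tRNA genes.

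**Figure D4:**
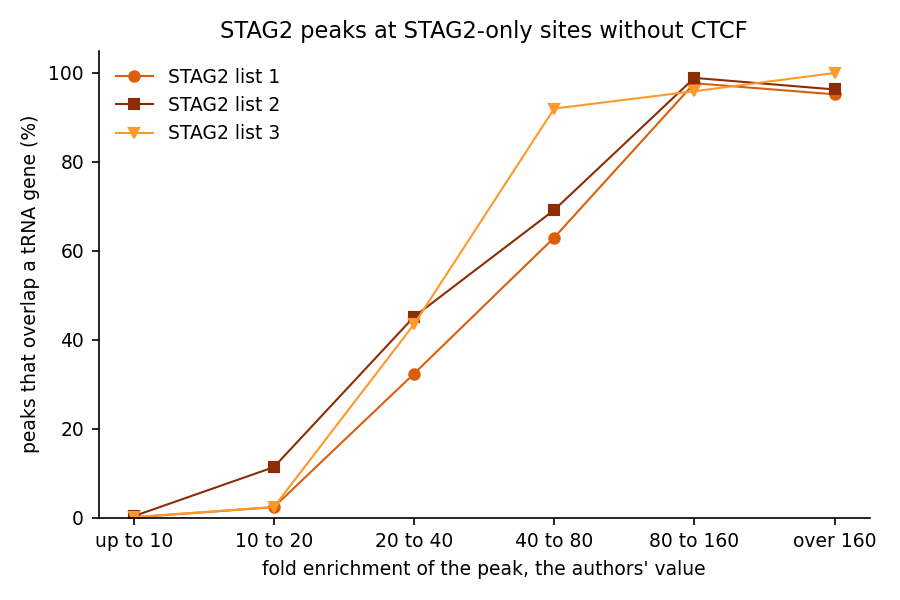
Percent of STAG2 peaks at STAG2-only sites without CTCF that overlap a tRNA gene (y axis), by the authors' fold enrichment of the peak (x axis), with 1 line for each STAG2 list. The share climbs from under 1% of peaks up to 10 to over 95% of peaks above 80.

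All 10 of the strongest STAG2-only sites without CTCF by mean rank overlapped tRNA genes, and so did 9 of the 10 at CTCF. The strongest, at chr3:90475574-90476369, lies 229 bp from the start of Ilf2, which encodes an RNA-binding protein, and holds the methionine tRNA gene n-TMcat11. Its STAG2 fold enrichment was 295, 243 and 222. The second, chr14:51089221-51089956, near Ang (angiogenin, a ribonuclease that cuts tRNA), holds the tyrosine tRNA gene n-TYgta10 and had 273, 250 and 193. A site at chr11:69062095-69063802 near Borcs6 covers 4 tRNA genes and had 227, 259 and 187. The site near Prmt5 (chr14:54517439-54518097), an arginine methyltransferase, holds n-TRacg6 and had 256, 217 and 198. The other 6 lay near Hes7, Trim7, Abt1, H4c8, Aurkb and Agbl5, with STAG2 fold enrichment of 174 to 288. Several of these lie in the same tRNA clusters of chromosomes 11 and 13.

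Among sites at CTCF, the strongest was chr11:97987464-97989356 near Arl5c, with 2 cysteine tRNA genes and fold enrichment of 256, 219 and 180. Sites near Aloxe3, Irgm1, Zfp692, Olfr1423, Zfp956, Rcsd1, Trim55 and Stx11 also held tRNA genes, 1 to 4 each. The exception was chr6:128798660-128799990 near Klrb1c, with 120, 109 and 87.6. The absence of a STAG1 peak in either list was a condition for choosing these 20 sites and is no result. The gene names above only place the sites, and distance to the nearest start reached 41433 bp at Stx11.

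Of 408 tRNA genes, 253 (62.0%) were called for STAG2 in all 3 lists. This share differed between families and between clusters. Highest were phenylalanine (all 7 called), tyrosine (all 10) and arginine (23 of 24). Lowest of the named families were cysteine (9 of 56) and asparagine (4 of 13), and several families are small. Of the 56 cysteine genes, 48 lay in a cluster on chromosome 6 that had 1 called gene. The low cysteine share thus came from that cluster and is no trait of the whole family. Of the 104 tRNA genes at chr13:21160785-23530419, beside the large histone cluster, 102 (98.1%) were called, against the 62.0% of all tRNA genes. Many tRNA genes are near-identical copies, and how reads that map to several places were handled is not given in the sources used here, so the values of single copies are uncertain.

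The same contrast was present in the other cell types. STAG2 lists of ESC, EpiLC, d2PGCLC and d4c7PGCLC overlapped 244 to 272 tRNA genes and STAG1 lists 1 to 15. The median percentile of STAG2 peaks on tRNA genes was 89.2 to 99.8 over those 10 lists. In GSC the STAG3 lists overlapped 47, 118 and 135 tRNA genes, with median fold enrichment of 5.43, 6.41 and 6.18, and the 4 CTCF lists 15 to 17. No STAG3 peak on a tRNA gene exceeded 24.

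**Figure D5:**
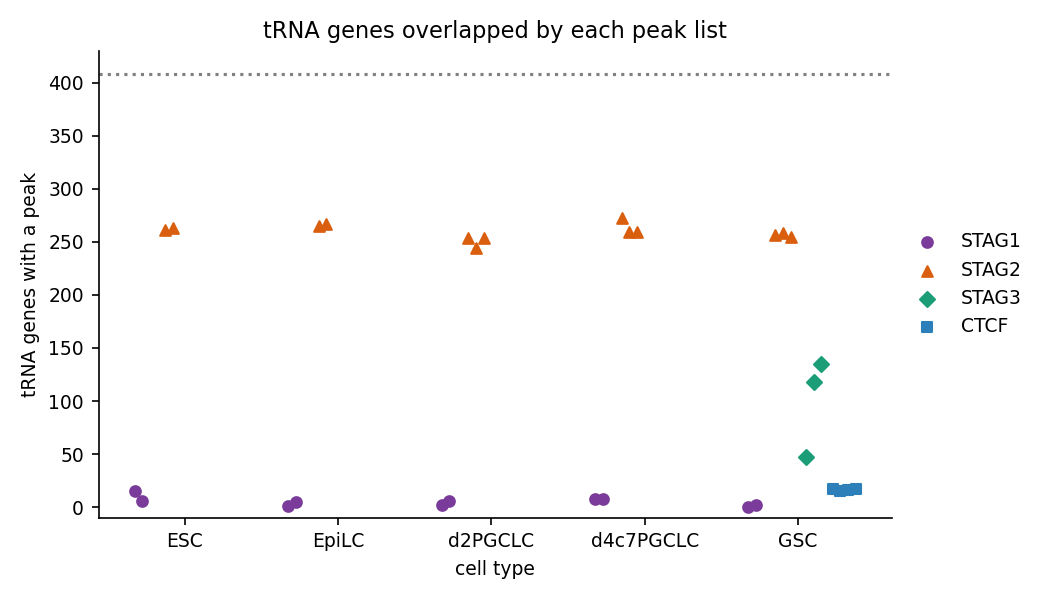
Number of tRNA genes overlapped by each peak list (y axis) by cell type (x axis), with 1 point for each list and the dotted line at all 408 genes. STAG2 lists lie at 244 to 272 in all 5 cell types, and STAG1 lists at 0 to 15.

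In the printed windows, STAG2 fold enrichment at Polg was 214, 145 and 162 and at Ndufs7 154, 126 and 123, with no STAG1 peak. At Polr3e it was 40.5, 48.5 and 80.8, beside STAG1 peaks of 7.40 and 8.51. BC107364 had none. The B box letters GTTCNANNC, searched on both strands, were found in the windows of all 4 genes. The B box is part of a tRNA gene and the windows were chosen for holding one, so this is no result. The window of Prmt5, not printed, holds 25 bases of n-TRacg6 and lacked these letters. Over all 21263 promoter windows of 300 bp, 8.43% held these letters, and 7.02% of those under STAG2-only sites without CTCF. The share under such sites was thus no higher than over all windows.

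Of 10 other short genes known to be transcribed by RNA polymerase III, 8 had a peak in all 3 STAG2 lists and 2 in none. They were picked by hand after the tRNA result was seen, so the count describes these genes only. Of RefSeq genes of at most 300 bp other than tRNA genes, 0.702% had a peak in all 3 STAG2 lists. That share also asks for no STAG1 peak in either list, which Rmrp does not meet. Among the 10, Rpph1, Rn7sk and Vaultrc5 are longer than 300 bp, so the share is not a like-for-like background. Of 4 annotated ribonuclease P RNA genes, 1 had a peak in all 3 STAG2 lists and in neither STAG1 list. Rny1 and Rny3, the Y RNAs, had STAG2 fold enrichment of 48.1, 34.0 and 23.6 and of 41.0, 35.2 and 24, with no STAG1 peak. Rn7s1 and Rn7s2, the RNA of the signal recognition particle, had 44.7, 33.5 and 42.7 and 36.7, 53.0 and 34.6. Rpph1, the RNA of ribonuclease P, had 20.1, 17.6 and 21.2, and Bc1, a small brain RNA, had 25.7, 28.5 and 12.5. Rmrp, the RNA of ribonuclease MRP, had 74.1, 36.8 and 62.4 and a STAG1 peak of 3.06 in 1 list. Rn7sk and Rnu6 had no STAG1 or STAG2 peak. The 63 annotated rRNA genes were not among the 10 and were not split by the polymerase that transcribes them. None of the 63 had a STAG1 or STAG2 peak, while the STAG3 lists overlapped 3, 27 and 40 of them. Spliceosomal RNA genes of RNA polymerase II had weaker peaks, such as Rnu1a1 with 7.29, 6.68 and 9.98 and Rnu5g with 7.43, 8.91 and 9.98.

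Outside tRNA genes, the strongest STAG2-only sites without CTCF were few. The first by mean rank, chr2:27539631-27540450, overlaps the small nuclear RNA gene Gm25541 and had 201, 178 and 143. The second, chr6:128843073-128843709, lies 17076 bp from the start of Klrb1b and had 190, 157 and 127. The third, chr7:120918507-120919127, lies inside Polr3e, 1039 bp from its start, and had 65.2, 63.3 and 88.3. These 3 were chosen after their values were seen.

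STAG2-only sites lay at gene starts in a larger share than shared sites did, above all those without CTCF. Of shared sites 1185 (14.1%, 95% exact binomial interval 13.4 to 14.9%) lay at a gene start, of STAG2-only sites at CTCF 1214 (20%, 19 to 21.1%) and of those without CTCF 2309 (45.5%, 44.1 to 46.9%). Windows at gene starts cover 4.69% of the span of the peaks. When replicate 1 or 3 of STAG2 was left out, the share of sites without CTCF at gene starts was 37.1% and 36.4%, and with lists of equal length 21.5%. Sites outside protein-coding genes and gene starts made up 56.6% of shared sites, 42.4% of STAG2-only sites at CTCF and 32.8% of those without CTCF.

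Of 21887 protein-coding genes, 3691 (16.9%) had a STAG2-only site at the gene start, 1226 (5.60%) a shared site and 20 (0.0914%) a STAG1-only site. These counts and their order depended on the lists. With lists of equal length they were 441, 1018 and 153, so more genes had a shared than a STAG2-only site. With a site required in all lists, 1094 genes had a STAG2-only and 1139 a shared site. Genes with a shared site numbered 1136 when STAG2 replicate 1 or 3 was left out. Leaving out STAG2 replicate 1 gave 1230 genes with a STAG2-only and 108 with a STAG1-only site, and leaving out replicate 3 gave 1209 and 109, while leaving out a STAG1 list gave 123 and 61 genes with a STAG1-only site. A STAG2-only site without CTCF was at the start of 10.7% of genes, and one at CTCF at the start of 5.90%. By the stricter call of a STAG2 peak in all 3 lists and a STAG1 peak in neither, 855 genes (3.91%) were found. The converse call, STAG1 in both lists and no STAG2, found 4 genes (0.0183%), which were Chadl, Cryba2, Evx2 and Mocs1. Of the 855 genes, 37 had a tRNA gene in the window, and these had a median STAG2 percentile of 99.7, against 33.9 for the other genes.

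Genes of cohesin itself were covered in part. At Stag1 a shared site had STAG1 fold enrichment of 6.60 and 6.77 and STAG2 of 10.1, 5.43 and 15.0. At Stag2, a shared site had 8.79 and 8.57 for STAG1 and 32.7, 19 and 30.3 for STAG2. At Smc3, a core subunit of the ring, a STAG2-only site had 13.7, 9.95 and 13.3 and no STAG1 peak. At Ctcf, STAG2 was called in replicates 1 and 3, with 7.04 and 7.49. Rad21, Rec8, Smc1a, Smc1b and Stag3 had no peak of either protein at the gene start, and Rad21l had 1 STAG2 peak of 4.97. Among 17 regulators of cohesin, 6 (35.3%) had a STAG2-only site, against 16.9% of all genes, and 1 (5.88%) a shared site, against 5.60%. Pds5a had STAG2 of 7.74, 6.33 and 8.73 without STAG1, and Pds5b had a shared site with STAG1 of 11.8 and 12.4.

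The gene lists used here were chosen with earlier results of these data known, and their counts are a description. Genes without a listed start were tested at either end, and the lists differed in this. Starts were listed for 19 of 30 spermatogonial, 22 of 39 Hox, 13 of 22 pluripotency, 12 of 17 cohesin regulator and 5 of 12 early germ cell genes. For replication histone genes it was 65 of 71, and for all genes 17492 of 21887. Shares are therefore not fully like for like. Stag2, Itga6, Bcl6b, Hoxb9 and Ccnd1 are among the genes without a listed start. Spermatogonial genes had a STAG2-only site without CTCF at the start in 14 of 30 (46.7%), against 10.7% of all genes, and 3 of 30 met the stricter call, against 3.91%. Those 3 were Id4, a transcriptional inhibitor of spermatogonial stem cells, with STAG2 of 4.94, 5.43 and 5.93, Itga6 with 6.62, 4.97 and 4.37, and Kit, the receptor of differentiating spermatogonia, with 5.79, 6.33 and 4.05. All 3 peaks were weak, and none of the 3 genes had a CTCF peak. Only 1 of the 30 (3.33%) had a shared site, against 5.60% of all genes. It was Bcl6b, a transcription factor of spermatogonial stem cells, with STAG1 of 21.3 and 16.6 and STAG2 of 60.4, 35.5 and 82.3.

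Replication histone genes had a STAG2-only site without CTCF in 26 of 71 (36.6%), against 10.7% of all genes, and no shared site, against 5.60%. The stricter call was met by 6 of 71 (8.45%), against 3.91%. The highest of them, H4c8 with 258, 217 and 174, had its peak on the tRNA gene n-TMcat9. H3c10, with 6.62, 7.23 and 8.42, and H2aw, with 5.38, 4.97 and 7.80, had no tRNA gene in the window. The proteasome gene Psmb3, with 97.1, 103 and 73.0, also had a tRNA gene in the window, unlike Psmb4 with 5.94, 7.23 and 6.55 and Psmd7 with 4.62, 8.02 and 6.52. At the ribosomal protein gene Rps29, the peak of 44.7, 33.5 and 42.7 was that of the neighbouring Rn7s1. Ribosomal protein genes as a whole had a STAG2-only site in 6 of 80 (7.50%), below the 16.9% of all genes.

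Hox genes had a shared site in 10 of 39 (25.6%), against 5.60% of all genes, with Hoxb9 at STAG1 of 25.8 and 19.2 and Hoxa5 at 32.3 and 25. Hoxd12, by contrast, had STAG2 of 16.1, 11.8 and 10.6 without STAG1. Imprinted genes had a STAG2-only site in 5 of 25 (20%), against 16.9%, and a shared site in 3 of 25 (12%), against 5.60%. Of these 3, the neighbours Peg10 and Sgce share 1 site, with STAG1 of 10.6 and 12.5. Igf2r had STAG2 of 6.62, 5.43 and 4.99 without STAG1. Meiotic genes had no shared site and a STAG2-only site in 5 of 31 (16.1%), against 16.9%, and Mei4, a factor of meiotic DNA breaks, met the stricter call with 5.94, 4.97 and 7.17. Of 21 piRNA pathway genes, 4 (19%) had a STAG2-only site, against 16.9%, and 2 (9.52%) a shared site in all 5 lists, against 5.09%, Spocd1 with STAG1 of 20 and 25.4 and Piwil1 with 6.40 and 4.44. Pluripotency genes had a STAG2-only site in 7 of 22 (31.8%), against 16.9%, among them Klf4 with 6.21, 5.62 and 7.80, and a shared site in 1 of 22 (4.55%), against 5.60%, which was Sox2 with STAG1 of 13.6 and 9.69.

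Markers of other cell types were also found at shared sites, and their expression was not measured by these lists. Of 14 Sertoli and Leydig cell genes, 3 had a shared site, with Cyp11a1 at STAG1 of 23.6 and 20.5, and of 14 fibroblast genes 2 did, Col1a1 and Col1a2, against 5.60% of all genes. Neurog2, the only 1 of 14 neural genes (7.14%), and Foxa2, an endoderm gene, had shared sites as well. Of all genes, 5.60% had a shared site and 5.09% had one called in all 5 lists. Olfactory receptor genes were the least covered, with a STAG2-only site in 5 of 1110 (0.450%), against 16.9%, and a shared site in 3, against 5.60%. Zfp zinc finger genes had a STAG2-only site in 66 of 394 (16.8%) and a shared site in 15 (3.81%), against 16.9% and 5.60% of all genes.

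In the remaining lists, STAG2-only sites were at the starts of 15 of 78 (19.2%) mitochondrial ribosomal protein genes, 7 of 23 (30.4%) proliferation genes, 22 of 57 (38.6%) clustered protocadherin genes, 2 of 19 (10.5%) germline genes known to be silenced by DNA methylation and 1 of 12 (8.33%) early germ cell genes, against 16.9% of all genes. Of the protocadherin genes 17 had such a site at CTCF and 1 without CTCF, and 10 of 57 (17.5%) had a shared site, against 5.60%. The protocadherin genes had 0 listed starts, so all 57 were tested at either gene end. Of all 21887 genes 17492 had a listed start, so the protocadherin shares are not like for like and may count sites at the far end. For the mitochondrial ribosomal proteins, Mrpl48 had STAG2 of 6.21, 9.04 and 6.55 without STAG1, and Mrps14 had 7.90, 7.23 and 5.93. Of 23 proliferation genes, 3 (13%) had a shared site, against 5.60%. Among them, Ccnd1 (cyclin D1) had STAG1 of 14.4 and 15.8, and Mcm5, a subunit of the replicative helicase, had 9.39 and 5.85. Of 12 early germ cell genes, 1 (8.33%) had a shared site, against 5.60%. It was Prdm1, a regulator of germ cell specification, with STAG1 of 6.51 and 10.7 and STAG2 of 22.2, 12.2 and 17.8. Rpl10l, a germline ribosomal protein gene, had STAG2 of 8.26, 14.9 and 10.3 without STAG1. Of mesendoderm genes, 2 of 12 (16.7%) had a shared site, against 5.60%, and none of the 12 a STAG2-only site.

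Of the 300 bp promoter windows, 386 overlapped a shared site, 564 a STAG2-only site at CTCF and 1639 one without CTCF. The CTCF core, searched on both strands as spelled out above, was in 46.9%, 31.6% and 12% of them, against 9.88% of all windows. The GC box GGGCGG was in 63.0%, 70.6% and 79.6%, against 46.2% of all windows, and median GC content was 63.0%, 65.0% and 66.7%, against 56.3%. The E-box CACGTG was in 7.77%, 10.3% and 12.1%, against 7.84%, and the ETS letters CCGGAAG in 19.7%, 17.6% and 15.4%, against 11.6%. GCGC on both sides of any 2 letters, as in the NRF1 motif, was in 14.2%, 16.1% and 19.2%, against 8.57%. CCAAT was in 30.8%, 30.5% and 32.9%, against 38.2%. TGACGTCA was in 2.33%, 2.84% and 2.68%, against 2.23%, and AANATGGC in 4.66%, 7.98% and 6.89%, against 6.37%. The GC box and the GC content move together in these groups, and the part of base composition was not tested.

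The sites with the highest STAG1 peaks were shared and at CTCF. The first, chr12:107998629-107999293, lies 4453 bp from the start of Bcl11b, a T cell and neural transcription factor, with STAG1 of 52.3 and 44.7 and STAG2 of 154, 99.5 and 161. The next were chr10:80446131-80446848 near Tcf3, with STAG1 of 53.3 and 43.6, and sites near Grid1, Bahd1 and Atoh8, with STAG1 of 38.9 to 46.2. None of the 5 held a tRNA gene. STAG3 was called at all 5, with fold enrichment of 12.1 to 27.8.

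STAG1-only sites were few, narrow and weak. Of the 194 sites, 122 had a peak in 1 STAG2 list, and 72 in none. The strongest by mean rank, chr13:70116671-70116875, lies 109144 bp from the start of Gm47655, with STAG1 of 13.4 and 11.1. It had no STAG2, STAG3 or CTCF peak. The others near Prl, C1qbp, Mrln and H4c8 had STAG1 of 8.99 to 14.7. Of the 27 STAG1-only sites without CTCF, 13 lay in one stretch of chromosome 7, chr7:38175884-38200293. These 27 carried a STAG1 peak in 14.8 to 48.1% over the STAG1 lists of other cell types, and a STAG2 peak in 0 to 7.41% over the STAG2 lists. None overlapped a tRNA gene.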

How the data were processed

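The submitters' processing notes name the builds mm10 and GRCm38.p3 and, as tools, MACS2 (no version), deepTools 3.5.0, bedtools 2.29.2, SAMtools 1.7, Bowtie2 2.3.4.1, cutadapt 1.9.1 and Trim Galore 0.4.1. Options and control libraries are not stated in the sources used here. For each peak, the deposited lists give for each peak a fold enrichment (a linear ratio), −log10 of a p-value and of a q-value, a score, and the summit position. STAG lists were called per library and CTCF lists on pooled replicates, per the labels and the names of the peaks.

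All peaks lay on chromosomes 1 to 19, X and Y. Intervals were compared in Python 3.11.15 with numpy 2.4.6, pandas 2.3.3 and scipy 1.17.1, with code tested on simulated lists. An overlap was at least 1 bp. Genes and promoters came from RefSeq tables of GRCm38.p6, with a listed start for 17492 of 21887 protein-coding genes and either gene end taken for the other 4395. Lists were compared by exact 2-sided permutation tests over the 5 lists. Intervals on shares are Clopper-Pearson intervals and cover counting error only.

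The named genes were the cohesin genes and Ctcf, up to 3 genes of each list with STAG2 in all 3 lists and no STAG1, up to 2 with a shared site in all 5 lists, and the genes nearest to the strongest sites of each class by mean within-list rank, where STAG2-only sites had to have no STAG1 peak in either list. The 4 genes with STAG1 and no STAG2, the short RNA genes and the genes of the printed sequences were named after their values were seen. The members, lists and tests were chosen with earlier results of these data known. Alternatives were a stricter q-value, lists of equal length, another overlap, window, CTCF or site rule, and leaving out each list.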

Additional observations from a re-analysis of the deposited data

How the results depend on the processing

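The 4 differences between lists kept their direction under every alternative run. Over the lists left out in turn, they ranged from 0.861 to 1.32 for the log2 ratio of peaks per list, from -35.3 to -23.1 percentage points at CTCF sites, from 9.09 to 14.5 at gene starts and from -19.2 to -14.6 at STAG3 sites. The counts of sites were less stable. With lists of equal length there were 2352 STAG2-only and 1088 STAG1-only sites, 78.6% and 17.6% of STAG2-only sites were at shared CTCF sites and gene starts, and 441 and 153 genes had a STAG2-only and a STAG1-only site at the start. With a site required in all lists, these values were 4349, 780, 68.9%, 24%, 1094 and 111. With a site in any list they were 21076, 482, 34.1%, 39.9%, 7355 and 65, and shared sites were at CTCF in 98.7% and at gene starts in 15.2%. With −log10 q of at least 5, STAG2-only sites were at CTCF in 58.6% and at gene starts in 29.1%. A CTCF peak in any genotype gave 99.98% of shared and 55.6% of STAG2-only sites. A window of 1000 bp gave 9.07% of shared and 27.7% of STAG2-only sites at gene starts, 788 genes with a shared site and 11 with a STAG1-only site. Genes with a known start only, an alternative chosen after seeing the data, gave 9.57%, 25.4% and 13 genes with a STAG1-only site. Over the lists left out in turn, STAG2-only sites numbered 4779 to 10585 and STAG1-only sites 246 to 837. Genes with a STAG2-only site numbered 1209 to 3551 and those with a STAG1-only site 25 to 123. Shared sites were at CTCF in 99.2 to 99.9% and at gene starts in 13.9 to 14.9%, and STAG2-only sites in 46.9 to 68.6% and 23.6 to 34.4%. With 1 STAG1 list left, each of its peaks counted as a site. The count of tRNA genes with a STAG2-only site, 248, lay between 243 and 248 under the alternatives run for it. Without peaks at tRNA genes, also chosen after seeing the data, no direction changed.

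The labels number the replicates, and a replicate block over numbers 1 and 2 gave 0.861, -23.1, 9.09 and -15.7 for the 4 differences, with an exact p of 0.5, the smallest that 2 pairs allow. The labels do not say that a number pairs samples. Deviations from the protein means correlated at 0.0181 and 0.0359 for numbers 1 and 2. With 2 STAG1 lists these deviations mirror each other, so the values cannot tell whether lists of 1 number share a culture or a run. Depth limits these results: a site without a peak may lie below what a short list could call.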
